A study of Mus musculus with 14 samples.

Results

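The acyl-CoA synthetase genes examined here were Acsl1, Acsl3, Acsl4, Acsl5, Acsl6, Acss1 and Acsf2, 7 of the 54532 genes in the deposited count table, taken by gene name. Of these, 5 form the ACSL family of long-chain acyl-CoA synthetases. Acss1 and Acsf2 belong to the same superfamily but are not long-chain enzymes: Acss1 activates acetate, and Acsf2 activates medium-chain fatty acids, both in mitochondria. RNA of the ileum mucosa was sequenced in 14 male mice that had eaten a high-fat diet (HFD) for 15 weeks, 1 library per mouse. The 7 wild-type (WT) mice were NCoR1 flox/flox without Cre. The 7 intestinal knockout (IKO) mice were NCoR1 flox/flox with Cre under the villin promoter, which is active in intestinal epithelial cells. All 14 mice therefore carried the floxed alleles, and there was no group with Cre alone. The mice were age-matched adults. The comparison asked how the synthetases differed when the nuclear receptor corepressor NCoR1 was removed from the gut epithelium.

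A fatty acid that enters an enterocyte must be joined to coenzyme A before it can be esterified, elongated or oxidized, and acyl-CoA synthetases carry out this step. Members of the ACSL family differ in the membranes they occupy and in the fatty acids they prefer, and ACSL5 is the member long associated with absorptive cells of the small intestine. Acsl1 is a classical target of PPARα, a fatty acid receptor whose targets NCoR1 represses.

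Between 14749669 and 21557468 reads per mouse were counted on genes. Genotypes were tested with the quasi-likelihood method of edgeR, and p values were adjusted by the Benjamini-Hochberg method over the 13846 genes that passed a filter on low counts. Levels are given as CPM, counts scaled to a common library size. Ncor1 was lower in every IKO mouse than in any WT mouse (log2 fold change -1.41, SE 0.18, edgeR adjusted p = 0.00051). The share of reads on mitochondrially encoded genes was 50.3% for IKO 4, 23.9% for WT 3 and at most 10.3% elsewhere. The labels call the samples intestinal epithelial cells, and all 8 enterocyte markers examined were detected, with summed levels of 18641 to 92557 CPM in WT and 43519 to 68492 CPM in IKO mice. Smooth muscle markers reached 10855 CPM in WT 4, 796 in IKO 1 and 392 in IKO 2, and at most 62.4 in the others. Stem and transit amplifying markers summed to 121 to 351 CPM in WT mice (median 269) and 85.8 to 220 CPM in IKO mice (median 141), with a median log2 fold change of -1.04 over 6 genes, of which 0 passed. Markers of B lymphocytes and plasma cells had a median log2 fold change of -1.63 over 5 genes, of which 0 passed, with median sums of 408 and 380 CPM. Tuft cell markers had a median of -0.68 over 4 genes, of which 1 fell, with median sums of 29.7 CPM in WT and 22.5 CPM in IKO mice. The lowest median of all lists was that of smooth muscle markers, -3.10 over 6 genes, of which 0 passed, with median sums of 22.6 CPM in WT and 10.5 CPM in IKO mice. The median of fibroblast markers was also below that of B lymphocytes, over 5 genes tested, of which 0 passed. Their highest sum was 354 CPM, in WT 4. The highest median was 1.20, for erythroid markers, over 2 genes tested, of which 0 passed. Of the other marker lists, 1 pancreatic acinar gene rose. The part of these cell types in the synthetase differences was not tested. In such bulk samples, fewer cells of a type and less RNA per cell cannot be told apart.

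Of the 7 synthetases, Acsl1 and Acsl3 rose in IKO mice, 0 fell, and 4 others were tested without passing an adjusted p of 0.05 (edgeR). At an unadjusted p under 0.05 the counts were 3 higher and 0 lower. The share of all genes at this unadjusted threshold is not given, here or for the lists below, so these counts have no background. Acsl6 had too few counts to be tested. Over all genes tested, 8.67% passed an adjusted p of 0.05 in either direction, 4.38% as higher and 4.28% as lower in IKO mice. The median log2 fold change was 0.53 over the 6 synthetases tested and -0.09 over all tested genes. In 0 of the 6 were the genotypes separated without overlap, as they were in 3.1% of all genes tested.

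**Figure D1:**
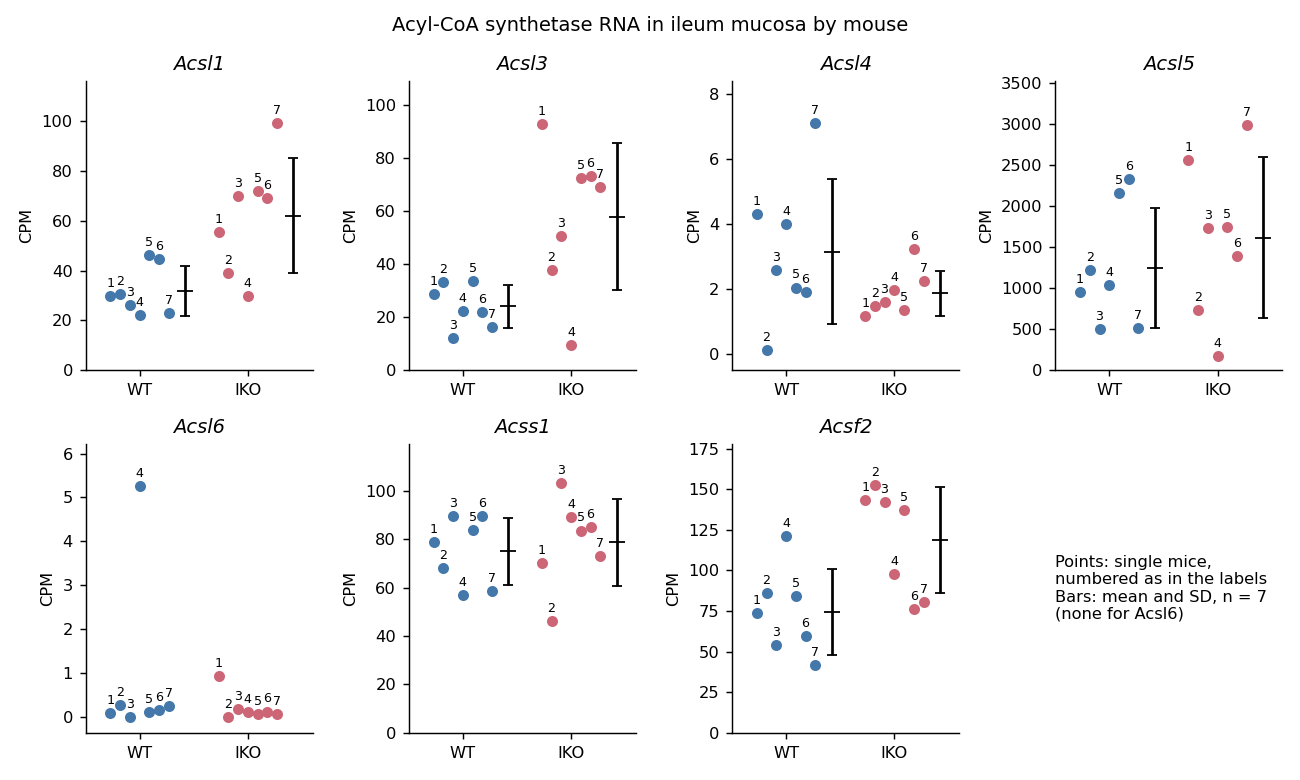
Level of each synthetase in CPM on linear axes, with 1 point per mouse numbered as in the labels, WT in blue and IKO in red. Bars give the mean and SD (n = 7) and are left out for Acsl6. In Acsl3, 6 of 7 IKO mice lie above the highest WT mouse and IKO 4 lies below the lowest. In Acsl6, WT 4 stands far above all others.

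The regions before the start sites of the 2 genes that rose are shown because both genes rose and both regions held several copies of one short motif. They are the 250 bases upstream of the RefSeq start site on GRCm38.p6, both on the plus strand, at chr8:46470787-46471036 for Acsl1 and chr1:78657575-78657824 for Acsl3. Capitals mark the GC box GGGCGG or its complement CCGCCC.
Acsl1: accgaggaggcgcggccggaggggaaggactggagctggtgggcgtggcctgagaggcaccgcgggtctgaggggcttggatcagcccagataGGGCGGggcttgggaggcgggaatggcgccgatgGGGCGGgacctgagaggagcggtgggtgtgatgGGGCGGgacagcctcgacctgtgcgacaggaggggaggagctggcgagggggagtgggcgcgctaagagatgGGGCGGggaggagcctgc
Acsl3: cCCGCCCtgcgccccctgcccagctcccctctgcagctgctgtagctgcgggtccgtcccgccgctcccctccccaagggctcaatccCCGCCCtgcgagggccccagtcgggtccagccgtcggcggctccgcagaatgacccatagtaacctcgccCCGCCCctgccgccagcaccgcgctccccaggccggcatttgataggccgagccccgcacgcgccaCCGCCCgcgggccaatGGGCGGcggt

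The GC content was 72% before Acsl1 and 75.6% before Acsl3. The median was 52.4% over the 32851 windows of the same length in the RefSeq table. Among genes that did not pass, it was 70.8% for Acsl4, 70% for Acsf2, 61.6% for Acss1 and 52.8% for Acsl5. The windows of Acsl6 had 57.2%, 74.8% and 60%, and the second window of Acsl1 had 48.4%. GC boxes lay at positions -157, -123, -90 and -18 from the Acsl1 start site. In the Acsl3 window they began at -249, -162, -92, -26 and -10. Windows of genes that did not pass also held several. In Acsf2 they began at -220, -206, -130, -125 and -120, in Acss1 at -33 and -22, and in Acsl4 at -22 and -18. Such boxes were frequent, with at least 1 on either strand in 32.7% of all windows. Among the synthetases, all 7 genes had a RefSeq window, with 2 for Acsl1 and 3 for Acsl6, which gave 10 windows, of which 8 held a GC box. The 2 windows without one were that of Acsl5 and a second window of Acsl1, 19929 bases into the gene. The motif DR1, a pair of AGGTCA copies with 1 base between them of the kind bound by PPARα with RXR, was in 0 of the 10 windows and in 0.0335% of all. Allowing up to 2 of its 12 fixed bases to differ, it was still in 0 of 10, against 3.24% of all windows. The same pair with a spacer of 4 bases (DR4) was also in 0 of 10, against 0.0152% of all. A single AGGTCA, which any exact DR1 or DR4 also contains, was in 1 window, of Acsl6, against 14.02% of all. The second Acsl1 window held TCACNCCAC, a sterol regulatory element, on its minus strand at -76, which 1.05% of all windows contained. All searches covered both strands. A missing match means only that these letters are not in these windows.

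Acsl1 encodes an enzyme of the endoplasmic reticulum and outer mitochondrial membrane, and it lies on chromosome 8 from 46471037 to 46536051 on the plus strand (mm10). Its level ranged from 22.1 to 46.4 CPM in WT mice with a median of 29.7, and from 29.6 to 99.4 CPM in IKO mice with a median of 69.0. A total of 5 of 7 IKO mice lay above the highest WT mouse, while IKO 2 and IKO 4 fell within the WT range. The mean was 31.8 ± 9.90 CPM in WT and 62.1 ± 23.2 CPM in IKO mice (SD, n = 7), a 1.95-fold difference (95% confidence interval 1.34 to 2.85) and a log2 fold change of 0.97 (SE 0.26, edgeR adjusted p = 0.033). Per length of its 10483 annotated exon bases, Acsl1 was at 2.97 FPKM (counts per gene length and library size) on average in WT and 5.94 in IKO mice.

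Acsl3, found on the endoplasmic reticulum and on growing lipid droplets, lies on chromosome 1 from 78657825 to 78707743 on the plus strand. In WT mice it ranged from 12.2 to 33.5 CPM with a median of 22.3. In IKO mice it ranged from 9.40 to 92.7 CPM with a median of 69.0. The lowest value of all 14 mice was that of IKO 4, and the other 6 IKO mice were above every WT mouse. The means were 24.1 ± 8.20 and 57.9 ± 27.7 CPM (SD, n = 7). In the fit, IKO mice had 2.41 times the level of WT mice (95% confidence interval 1.40 to 4.14). The log2 fold change was 1.27 (SE 0.37, edgeR adjusted p = 0.046). Without IKO 4, the library with the highest mitochondrial share, the log2 fold change was 1.46 (edgeR adjusted p = 0.0062), in a fit where 3.7% of all genes passed as higher.

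Acsl3 shares 244 exon bases on the same strand with Utp14b, a gene for ribosomal RNA processing. Utp14b also rose, from 9.86 ± 4.18 to 19.3 ± 5.26 CPM (SD, n = 7; log2 fold change 0.97, edgeR adjusted p = 0.029). The 244 bases are a small stretch of the 4357 exon bases of Acsl3. How the counting treated reads in the shared bases is not given in the sources used here, and the part of Utp14b in the Acsl3 value was not tested.

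Both calls lay near the threshold. When each mouse was left out in turn, Acsl1 stayed between 0.82 and 1.09 on the log2 scale and passed in 6 of 14 fits (adjusted p = 0.017 to 0.072), and Acsl3 stayed between 1.12 and 1.46 and passed in 3 of 14 (adjusted p = 0.0062 to 0.093). The mice without which Acsl1 did not pass were WT 1, WT 3, WT 4, WT 7, IKO 1, IKO 3, IKO 5 and IKO 7, and Acsl3 passed only without WT 2, WT 5 or IKO 4. Without WT 3, WT 4 and IKO 4 together, the log2 fold change was 0.95 for Acsl1 (edgeR adjusted p = 0.058) and 1.30 for Acsl3 (edgeR adjusted p = 0.019), where 1.97% of all genes passed as higher. The direction was the same under every alternative run. With the summed enterocyte markers as a covariate, chosen after seeing the data, the Acsl1 log2 fold change was 0.78 (edgeR adjusted p = 0.107). In the same fit the Acsl3 log2 fold change was 0.96 (edgeR adjusted p = 0.159), and 0 of the synthetases passed. Over the 13 alternatives other than those leaving out 1 mouse, this fit included, 226 to 1138 of all genes passed as higher. The share of all genes in this fit alone is not given here.

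**Figure D2:**
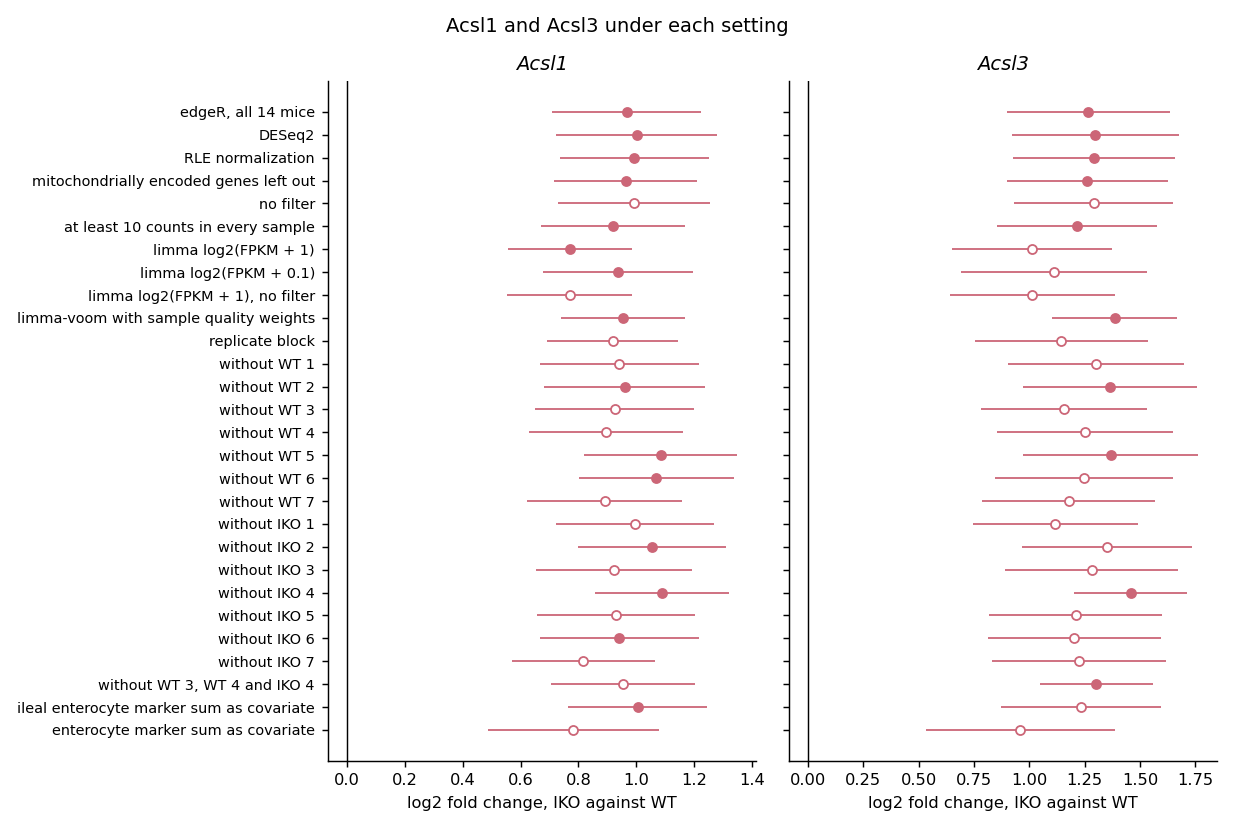
Log2 fold change of Acsl1 and Acsl3 in IKO against WT mice under each setting run, with its standard error as a bar. Filled points have an adjusted p under 0.05. All values lie above 0, between 0.77 and 1.09 for Acsl1 and between 0.96 and 1.46 for Acsl3, and the adjusted p lies on either side of the threshold.

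Acsf2, the medium-chain enzyme, is on chromosome 11 from 94557102 to 94601871 on the minus strand. WT mice had 41.7 to 121 CPM with a median of 73.9, and IKO mice 76.3 to 153 CPM with a median of 137. All 7 IKO mice were above the WT median, but only 4 were above the highest WT mouse, WT 4. The log2 fold change was 0.67 (SE 0.24, 95% confidence interval 0.17 to 1.18) and did not pass (edgeR adjusted p = 0.081). It passed with DESeq2 at 0.71 (adjusted p = 0.043), where 6.41% of all genes passed as higher, and in edgeR without WT 4 at 0.83 (adjusted p = 0.045), where 2.91% of all genes passed as higher.

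Acsl5 was by far the most abundant of the 7 synthetases. It is on chromosome 19 from 55251938 to 55297720 on the plus strand. Its level ranged from 504 to 2327 CPM in WT mice with a median of 1032, and from 170 to 2989 CPM in IKO mice with a median of 1733. The highest WT mice were WT 5 and WT 6, the lowest of all was IKO 4, and 5 of 7 IKO mice lay above the WT median. The genotypes differed by 0.38 on the log2 scale (SE 0.50, 95% confidence interval -0.68 to 1.44, edgeR adjusted p = 0.634). As a fold, the interval ran from 0.624 to 2.71. With each mouse left out, the difference ranged from 0.16, without IKO 7, to 0.61, without WT 6, and the edgeR adjusted p over the 14 fits from 0.342 to 0.858. The SD of its log2 level within a genotype was 1.18, more than that of 92.7% of the genes tested.

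The level of Acsl5 was set beside markers of the distal ileum. The summed level of Slc10a2, the ileal bile acid transporter, Fabp6, the ileal bile acid binding protein, and Fgf15, a hormone of the ileum, ranged from 246 to 7971 CPM in WT and from 340 to 6266 CPM in IKO mice. The 2 WT mice with the most Acsl5, WT 6 and WT 5, had the 2 lowest sums of their genotype, at 246 and 397 CPM. IKO 4, with the least Acsl5, had the highest sum of its genotype, in a library with 50.3% of reads on mitochondrially encoded genes. IKO 7, with the most Acsl5 of all, had a sum of 1100 CPM. Other mice departed from this order. WT 4 had the highest sum of all 14 mice, 7971 CPM, with Acsl5 at the WT median of 1032 CPM, and IKO 2 had a low sum of 371 CPM with 728 CPM of Acsl5. With this sum as a covariate, chosen after seeing the data, Acsl5 differed by 0.44 (edgeR adjusted p = 0.539), and Acsl1 by 1.00 (adjusted p = 0.023) and Acsl3 by 1.23 (adjusted p = 0.052). The part of the sampled position along the ileum in these values was not tested. In the fit with the enterocyte markers, the estimate for Acsl5 changed sign to -0.17 (edgeR adjusted p = 0.869). Acsl5 also shares 404 exon bases with Zdhhc6 on the opposite strand, and whether the counting used strand is not given in the sources used here.

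**Figure D3:**
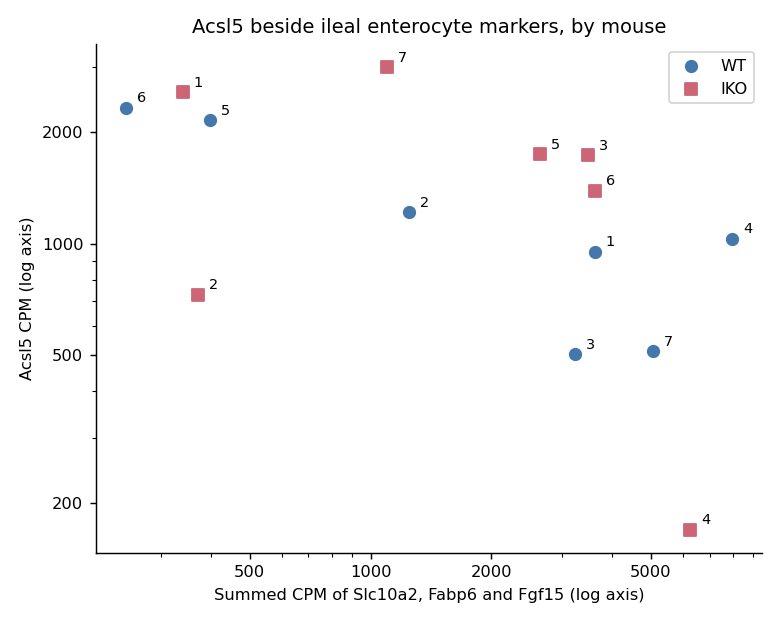
Acsl5 level in CPM against the summed CPM of the ileal enterocyte markers Slc10a2, Fabp6 and Fgf15, both on log axes, with 1 numbered point per mouse (circles WT, squares IKO). WT 5, WT 6 and IKO 1 combine high Acsl5 with low marker sums. IKO 4, with 50.3% of reads on mitochondrially encoded genes, combines the lowest Acsl5 with a sum of 6266 CPM. IKO 2 lies apart at the lower left, and WT 4 has the highest sum with Acsl5 at the WT median.

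Acss1, the mitochondrial acetate enzyme, is on chromosome 2 from 150618105 to 150668500 on the minus strand. It ranged from 56.9 to 89.5 CPM in WT mice with a median of 78.6, and from 46.3 to 103 CPM in IKO mice with a median of 83.6. Its level varied little, with a within-genotype SD of 0.33 on the log2 scale, above that of only 19.2% of the genes tested. The difference was 0.07 (SE 0.18, edgeR adjusted p = 0.820), and its 95% confidence interval of -0.31 to 0.44 leaves out a change as large as the estimate for Acsl1.

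Acsl4, which prefers arachidonic acid, is on the X chromosome from 142317993 to 142390535 on the minus strand. It was scarce, with 0.129 to 7.11 CPM in WT mice (median 2.58) and 1.17 to 3.21 CPM in IKO mice (median 1.61). In WT 2 only 2 reads were counted on it. The log2 fold change was -0.77 (SE 0.51, 95% confidence interval -1.85 to 0.32, edgeR adjusted p = 0.320), and 1 of 7 IKO mice lay above the WT median. It ranged from -0.97, without WT 2, to -0.45, without WT 7, when each mouse was left out. The estimate was 0.19 with the enterocyte markers as a covariate.

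Acsl6, best known from brain, is on chromosome 11 from 54303798 to 54364756 on the plus strand. Of its 153 counts in all, 111 were in WT 4 and 16 in IKO 1. The other 12 mice had 7 counts or fewer. WT 3 and IKO 2 had 0 counts, which allows up to 0.204 and 0.177 CPM (3 counts, counting error only). WT 4 and IKO 1 were also the 2 mice with the most RNA of markers of enteric neurons and glia, at 219.6 and 14.3 CPM summed over 7 genes, followed by IKO 2 at 9.55 CPM and the others at 5.57 CPM or less. They were likewise the 2 highest in smooth muscle markers. The part of these cells in the Acsl6 counts was not tested.

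The order of the levels, compared per length in FPKM, was Acsl5, Acsf2, Acss1, Acsl3, Acsl1, Acsl4, Acsl6 in both genotypes. The length is that of all annotated exon bases of a gene, 10483 for Acsl1 and 4357 for Acsl3, and the order depends on it. In mean CPM, not divided by length, Acsl1 was above Acsl3, at 31.8 against 24.1 in WT and 62.1 against 57.9 in IKO mice. Mean Acsl5 was 250.8 FPKM in WT and 332.8 in IKO mice, above 98.8% and 98.6% of the genes tested. Acsf2 followed with 21.2 and 34.6 FPKM and Acss1 with 17.8 and 19.1 FPKM. Acsl3 moved from 5.41 FPKM, above 60.4% of the genes tested, to 13.3 FPKM, above 76.5%. Acsl4 had 0.57 and 0.34 FPKM, above 12.5% and 11.7% of the genes tested. Of the 12 neighbouring pairs in the 2 orders, 10 differed (exact two-sided sign-flip test over 7 mice, adjusted p = 0.023 to 0.038). The pair Acsf2 and Acss1 in WT mice differed by 0.20 on the log2 scale, with Acsf2 higher in 4 of 7 mice (exact test, adjusted p = 0.484). In IKO mice the same pair differed by 0.84, with Acsf2 higher in 7 of 7. The other pair that did not pass was Acss1 and Acsl3 in IKO mice, at 0.74 (exact test, adjusted p = 0.085).

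Within the ACSL family, Acsl5 made up nearly all of the RNA. Its share of the summed FPKM of the 5 genes was 93.5% to 98.0% in WT mice with a median of 95.9%, and 86.7% to 96.0% in IKO mice with a median of 93.8%. The lowest share was that of IKO 4, and the genotypes overlapped. The total of the family ranged from 105 to 485 FPKM in WT and from 40.8 to 649 FPKM in IKO mice. Without Acsl5, the sum was 5.55 to 12.3 FPKM in WT mice with a median of 9.57, and 5.43 to 26.6 FPKM in IKO mice with a median of 23.8. In this remainder 6 of 7 IKO mice were above the highest WT mouse, and IKO 4 was below the lowest. Acsl3 alone accounted for 1.03% to 3.34% of the family in WT and 2.47% to 5.44% in IKO mice. These shares also depend on the annotated exon lengths and are given as a description, with no test.

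**Figure D4:**
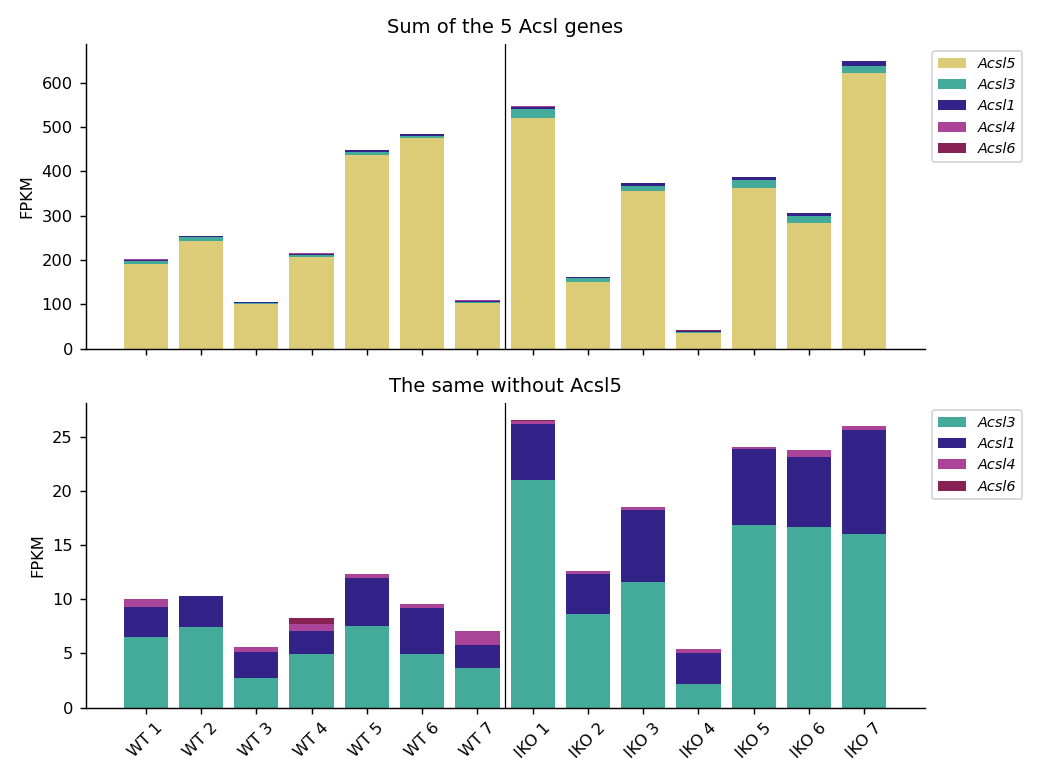
Stacked FPKM of the 5 ACSL genes in each mouse (upper panel) and the same without Acsl5 (lower panel), on linear axes that start at 0. Acsl5 fills 86.7% to 98.0% of the upper bars, so the total follows Acsl5. In the lower panel, 6 of 7 IKO bars exceed the highest WT bar of 12.3 FPKM, and IKO 4 reaches 5.43 FPKM.

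Whether one synthetase differed more between genotypes than another was tested on the log2 ratio of their counts within each mouse, which does not depend on library scaling. Of the 15 pairs among the 6 genes tested, 0 passed after adjustment over the pairs (exact two-sided permutation test over 3432 divisions of the mice), with 2 under an unadjusted 0.05. These were Acsl1 over Acss1, 0.87 higher in IKO mice (exact permutation p = 0.0064, adjusted p = 0.074), and Acsl3 over Acsl5, 0.89 higher (exact permutation p = 0.0099, adjusted p = 0.074). Acsl3 over Acss1 differed by 1.03 (exact permutation p = 0.072, adjusted p = 0.262). Acsl1 and Acsl3 were not separated, with a difference of -0.16 (exact permutation p = 0.656). The count of pairs that passed was 5 without WT 2 and 2 without IKO 4. Without WT 2 the pairs were Acsl1/Acsl4, Acsl1/Acss1, Acsl3/Acsl4, Acsl3/Acsl5 and Acsl4/Acsf2, 3 of which involve Acsl4, at 2 counts in that mouse. Without IKO 4 they were Acsl1/Acss1 and Acsl3/Acss1, with differences of 1.07 and 1.46.

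The other acyl-CoA synthetases were compared from a list of 18 genes, of which 11 were tested. Over all genes tested, 4.38% passed as higher and 4.28% as lower in IKO mice. Acss2, the cytosolic acetyl-CoA synthetase, rose from 14.7 ± 4.32 to 23.9 ± 5.18 CPM (SD, n = 7; log2 fold change 0.70, SE 0.20, edgeR adjusted p = 0.039), 0 fell, and the median log2 fold change of the 11 was 0.0025. At an unadjusted p under 0.05, 2 were higher and 2 lower. Slc27a4, the fatty acid transport protein of enterocytes and the most abundant of the list, was at 1135 ± 359 CPM in WT and 1278 ± 481 CPM in IKO mice (log2 fold change 0.17, edgeR adjusted p = 0.744). The largest positive difference of the list, 0.98, was that of Aacs, which activates acetoacetate (edgeR adjusted p = 0.066). Acss2 passed in 4 of 14 fits that each left out 1 mouse, with a log2 fold change of 0.63 to 0.84.

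**Figure D5:**
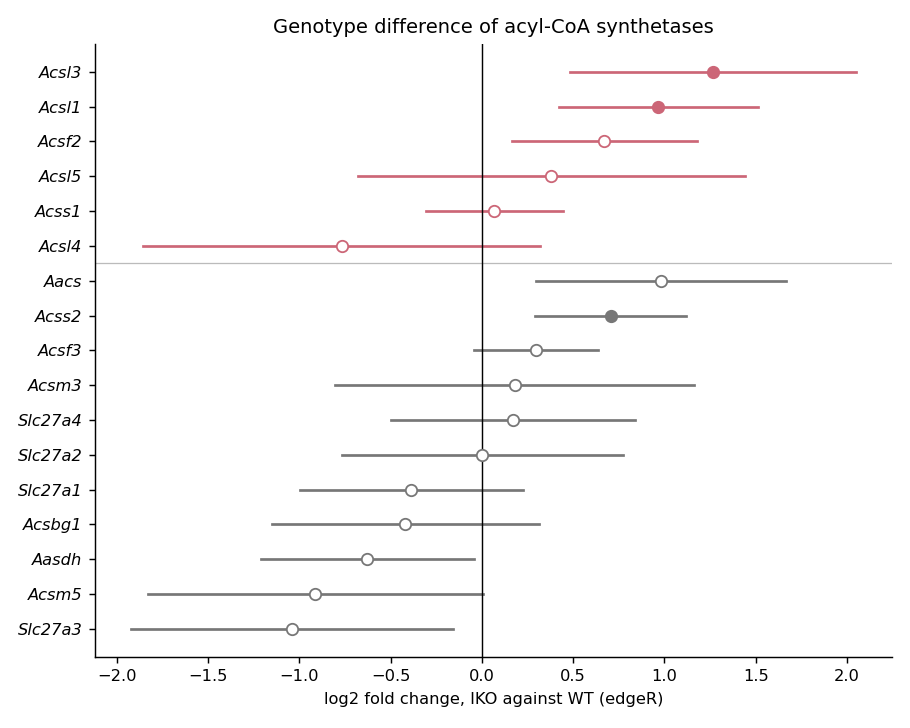
Log2 fold change in IKO against WT mice with 95% confidence intervals (edgeR) for the 6 synthetases tested (red, upper) and 11 others of the superfamily (grey, lower). Filled points have an adjusted p under 0.05. Only Acsl3, Acsl1 and Acss2 are filled, at 1.27, 0.97 and 0.70.

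The genes that act on the product of these enzymes were read from further lists. For the edgeR counts of all these lists, the share over all genes tested was 4.38% higher and 4.28% lower in IKO mice. Of 10 genes for mitochondrial entry and oxidation of long-chain acyl-CoA, 8 were tested, 6 rose and 0 fell, with a median log2 fold change of 1.08. Slc25a20, which carries acylcarnitine into mitochondria, rose from 121 ± 25.8 to 314 ± 51.8 CPM (SD, n = 7; edgeR adjusted p = 0.00029), and Cpt2, which turns acylcarnitine back into acyl-CoA, from 129 ± 19.2 to 267 ± 64.4 CPM (edgeR adjusted p = 0.0036). Hadha and Hadhb, the subunits of the trifunctional protein of beta-oxidation, rose by 1.12 and 1.15 on the log2 scale (edgeR adjusted p = 0.015 and 0.0093). In these 4 genes, named for the smallest p of the list, every IKO mouse lay above every WT mouse. In Acadl, Acadvl, Cpt1a and Acad9, the others tested, the genotypes overlapped. Over all genes tested, 1.83% were separated in this way, a share that cannot be set against genes chosen by p. Cpt1a, which makes acylcarnitine from acyl-CoA, had a log2 fold change of 0.77 and did not pass (edgeR adjusted p = 0.101). The count of 6 was 4 to 6 with each mouse left out and 3 without WT 3, WT 4 and IKO 4.

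For peroxisomal entry and oxidation, 5 of 6 genes were tested, 3 rose and 0 fell. Among them were Acox2, an oxidase of branched-chain acyl-CoA, at a log2 fold change of 1.59, and Abcd3, a peroxisomal acyl-CoA transporter, at 1.14 (edgeR adjusted p = 0.00051 and 0.025). The count of 3 fell to 1 without WT 7, IKO 1 or IKO 5. Of 10 thioesterases, which split acyl-CoA, 9 were tested and 4 rose, with log2 fold changes of 3.25 for Acot1, 1.98 for Acot2, 1.55 for Acot4 and 0.84 for Acot8, and 0 fell. Acot1 and Acot2 are close paralogs whose reads the counting may have split. Acot12 was at 0.18 (edgeR adjusted p = 0.756). Of 6 genes for acyl-CoA binding proteins, 5 were tested and Dbi alone passed. Dbi, the acyl-CoA binding protein itself, rose from 344 ± 48.7 to 966 ± 298 CPM (SD, n = 7; edgeR adjusted p = 0.00089), with 0 fallen, while Acbd4 was at -0.06 (edgeR adjusted p = 0.915).

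For the use of acyl-CoA in glycerolipid and sterol ester synthesis, 11 of 12 genes were tested and 0 passed with edgeR, with a median log2 fold change of 0.25. At an unadjusted p under 0.05, 2 were higher and 1 lower in IKO mice. With DESeq2 2 genes passed, where 13.8% of all genes passed in either direction. Dgat1, which completes triglyceride synthesis, was at 843 ± 387 CPM in WT and 929 ± 318 CPM in IKO mice (log2 fold change 0.14, edgeR adjusted p = 0.796). Of 4 genes for fatty acid uptake and binding, Fabp1, the liver-type binding protein, rose by 2.17 (edgeR adjusted p = 0.028) and 0 fell, while Fabp2, the intestinal one, was at 0.38 (edgeR adjusted p = 0.435). Fabp1 did not pass without WT 4, IKO 1 or IKO 2. Of 12 genes for nuclear receptors and regulators, 11 were tested, 3 rose and 2 fell. Srebf1, a driver of fatty acid synthesis, rose by 1.64, the receptor gene Ppara by 1.55 and Ppard by 0.74 (edgeR adjusted p = 0.0056, 0.029 and 0.019). Ncor1 was among those that fell. Rxra, the partner receptor of the PPARs, was at 0.37 (edgeR adjusted p = 0.130). The count of 5 in this list was 3 without WT 7 or IKO 4, and 2 without WT 3, WT 4 and IKO 4 together.

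The genes with the pattern most like each synthetase over the 14 mice were found among 12357 protein-coding genes by the root mean square difference of centred log2 levels. For Acsl1 they were Tor1aip2, Ndfip2 and Tob1, at differences of 0.17, 0.20 and 0.22, against a median of 0.84 over all these genes. For Acsl3 they were Lpcat3, Ceacam20 and Hsd17b11, at 0.34 to 0.36 against a median of 1.10. For Acsl5 they were Cyp3a13, Ltb4r2 and Gpr39, at 0.25 to 0.32 against a median of 1.20. Sqstm1, Tsc22d4 and Ndufa9 were nearest to Acsf2, at 0.26 to 0.32, and Mon1b, Arid1b and Zbtb39 to Acss1, at 0.13 to 0.14. The scarce Acsl4 had no close match, with Ttc21b, Sp110 and Zfp316 nearest at 0.53 to 0.56. These likenesses share libraries, depth and scaling and are a description only.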

How the data were processed

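RNA of the ileum mucosa of 7 WT and 7 IKO mice was sequenced as 150-bp paired-end reads on a NovaSeq after library preparation with a NEBNext Ultra RNA kit, cleaned with in-house Perl scripts, aligned with HISAT2 2.0.5 and counted with featureCounts 1.5.0-p3. The build mm10 and DESeq2 1.16.1 come from the submitters' processing notes. Filters, strand and the treatment of reads shared by genes are not given in the sources used here. The authors deposited raw counts per gene, whole numbers with no scaling, and columns named KO were read as IKO. The deposited FPKM are those counts over gene length, times 1 factor for each sample, within 0.1% for all genes with at least 10 counts.

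Genes were filtered with filterByExpr (minimum count 10), normalized with TMM and tested for genotype, the single term, by glmQLFit and glmQLFTest of edgeR 4.0.16 under R 4.3.3. The SE is the size of the log2 fold change divided by the square root of F. CPM use the TMM factors, which ranged from 0.579 in IKO 4 to 1.53 in WT 7. A prior count of 2 was added for log2 levels. Ratios within a mouse used counts plus 0.5, and the order of levels used log2(FPKM + 0.1). Exact permutation tests (scipy 1.17.1) were two-sided, with a smallest possible p of 0.00058 for 7 against 7 mice and 0.016 for 7 sign flips. The method was tested on simulated counts.

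The 7 synthetases, the other lists and the tests were chosen with earlier results of these data known. Named are all 7 synthetases and Ncor1, up to 4 genes per list with the smallest p among those that passed and up to 2 others with the highest level, and the 3 genes most alike to each synthetase. Aacs and the genes that overlap a synthetase were added after their values were seen. Alternatives were DESeq2 1.42.0, RLE normalization, mitochondrially encoded genes left out, no filter, a minimum of 10 counts in each mouse, limma 3.58.1 on log2(FPKM + 1) or log2(FPKM + 0.1) where 7 mice or more exceeded 0.5 FPKM and, with 1 added, unfiltered, limma-voom with sample quality weights, the sample number as a block, each mouse left out, and WT 3, WT 4 and IKO 4 left out. For ratios they were an offset of 5 and FPKM, and for the order a pseudocount of 1 and CPM per length. Fits with a marker sum as covariate were added after the data were seen. Start and end of all 7 genes are the same in GENCODE vM21. Promoter windows come from RefSeq (GRCm38.p6). No 2 libraries held identical values. Results for some single genes of the lists are not reported here.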

Additional observations from a re-analysis of the deposited data

Results flagged for a closer look

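Extreme mice were sought in 18 sets of 7 values: the CPM of each synthetase, the summed FPKM of the ACSL family and the share of Acsl5 in it, by genotype. The gap between an extreme mouse and its nearest neighbour was divided by the whole range. It was set against Dixon's 95% critical value for 7 values, which about 1 of 20 independent sets of normal values pass (0.9 of 18). These sets are not all of that kind. Acsl6 CPM rest on few counts, and Acsl5 enters its own CPM, the sum and the share. Acsl6 was far higher in WT 4 than in the other WT mice (ratio 0.951), at 5.27 CPM against 0.258 CPM for the next. Acsl6 in IKO 1 stood apart in the same way (ratio 0.822), at 0.935 CPM against 0.166 CPM. The share of Acsl5 in the FPKM of the ACSL family was far lower in IKO 4 than in the other IKO mice (ratio 0.594), at 86.7% against 92.2%. WT 4 and IKO 1 had the highest sums of smooth muscle and of enteric neuron and glia markers in their genotypes, and IKO 4 had a mitochondrial share of 50.3%. The part of these in the values was not tested.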

How the results depend on the processing

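Of the 7 synthetases, 2 passed with edgeR, and the count was 3 with DESeq2 (Acsf2 added), 1 with limma on log2(FPKM + 1) or log2(FPKM + 0.1) (Acsl1), 0 with limma on log2(FPKM + 1) without a filter, 0 without a filter in edgeR, 1 without WT 3, WT 4 and IKO 4 (Acsl3), 1 with the ileal enterocyte marker sum as a covariate (Acsl1) and 0 with the enterocyte marker sum. It ranged from 0 to 2 with each mouse left out. For all genes called, the count was 1200 in the main test, 2444 with DESeq2, 508 without a filter, 614 with limma on log2(FPKM + 1) without a filter, 1889 with limma-voom and sample quality weights, 433 without WT 3, WT 4 and IKO 4, and 515 to 1371 with each mouse left out. The number of all genes called, higher in IKO, was 607 with edgeR, 346 without a filter and 276 without the 3 libraries. Over the 13 alternatives other than those leaving out 1 mouse, the marker sum fits included, it was 226 to 1138. The number of all genes called, lower in IKO, was 593, 162 and 157. Where no filter was used, 29041 genes shared the adjustment in place of 13846; the cause of the other shifts was not tested.

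Equal numbers in the 2 genotypes do not pair mice: the correlations of their deviations were -0.31 to 0.23. With the number as a block, 362 genes and 0 synthetases passed, with log2 fold changes of 0.92 for Acsl1 (edgeR adjusted p = 0.060) and 1.14 for Acsl3 (edgeR adjusted p = 0.123), and 1 of 7 WT mice correlated best with the IKO mouse of its own number.

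The count of pairs whose ratio differed was 0 in the main test, 2 without WT 3, WT 4 and IKO 4, and 0 to 5 with each mouse left out. Neighbours in the order of levels that differed numbered 9 to 10 of 12 with each mouse left out, where 6 sign flips cannot give a p under 0.031.

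Signs changed under some alternatives, for small differences and also for Acsl4, at -0.77 in the main test. Acbd4, at -0.06, was 0.046 with limma on log2(FPKM + 1) with or without a filter, 0.048 on log2(FPKM + 0.1), 0.076 with limma-voom, 0.012 with the block, 0.13 without the 3 libraries and -0.22 to 0.11 with each mouse left out. With the enterocyte marker sum as a covariate, Acsl4 was 0.19, Acsl5 -0.17, Acot12 -0.21, Dgat1 -0.26 and Slc27a4 -0.17. With each mouse left out, Acss1 ranged from -0.024 to 0.17, and the ratio differences ranged from -0.087 to 0.65 for Acsl5/Acss1, -1.10 to 0.015 for Acsl4/Acsl5, -0.91 to 0.037 for Acsl4/Acss1 and -0.39 to 0.0085 for Acsl1/Acsl3.

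Under 27 alternatives, the call of Acsl3 was lost in 18 and that of Acsl1 in 13. The calls of Slc25a20, Cpt2, Hadhb, Acox2, Acot1, Acot2, Acot4, Acot8, Dbi and Srebf1 were kept in all. Acss2 was lost in 14, Abcd3, Fabp1 and Ppara in 6 each, Ppard in 2 and Hadha in 1. Genes called in the lists numbered 1 to 3 of the peroxisomal list, 3 to 6 of the mitochondrial, 2 to 6 of the regulators, 0 to 3 of the other synthetases, 0 to 3 of the glycerolipid and 0 to 1 of the uptake list, while the 4 thioesterases and 1 binding protein did not vary in number. The peroxisomal count was 1 with the block, without a filter or with the enterocyte marker sum. Depth limits Acsl6 and Acsl4, with 153 counts in all for Acsl6, and 508 in WT and 211 in IKO mice for Acsl4.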
